A study of Mus musculus with 9 samples.

Results

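The Hox genes of the mouse were followed in thymic invariant natural killer T (iNKT) cells that carried or lacked Utx. The members are all array probe sets that name exactly 1 gene and whose gene symbol is Hox, a cluster letter from a to d and a number, whatever their level, with antisense and opposite-strand genes left out. This gave 48 probe sets for 33 genes, out of 45101 probe sets on the array and 18193 genes with a probe set of their own. The A cluster was covered by 9 genes, the B cluster by 9, the C cluster by 7 and the D cluster by 8. For each gene the probe set of highest mean over all arrays stands for the gene, and every further probe set is reported beside it.

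iNKT cells carry an antigen receptor of nearly fixed make-up, which recognises lipids on CD1d. The arrays carried RNA of sorted thymic iNKT cells. The mice were 8 to 12 weeks old, and the labels call them sex- and age-matched. They were 5 Utx wildtype animals (WT1 to WT5) and 4 Utx knockout animals (KO1 to KO4), which the titles call biological replicates. The titles also name 3 batches: WT1 and KO1 form batch 1, WT2 lies with KO2, KO3 and KO4 in batch 2, and WT3 to WT5 form batch 3. Strain, the deleted part of Utx, the cells in which it was deleted and the sorting gate are not stated in the labels.

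Hox genes encode homeodomain transcription factors that give cells along the body axis their position. They lie in clusters, and the members of a cluster are numbered along the chromosome, with low numbers expressed earlier and further forward in the embryo. Hox clusters are the classic targets of Polycomb: Polycomb repressive complex 2 places trimethylation on lysine 27 of histone H3 and keeps a cluster silent, and Utx, the product of the X-linked gene Kdm6a, removes that mark. In blood development the A cluster is the one best known to be active in stem cells, progenitors and the earliest thymocytes, and it is shut down as T cells mature. The comparison of the 2 genotypes asks what happens to these targets in a mature thymic T cell lineage when the demethylase is missing.

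The start-site regions of the 4 genes with a called probe set, Hoxa3, Hoxa5, Hoxa7 and Hoxa9, are printed below. For Hoxa3 and Hoxa9 the probe set called is not the brightest of the gene, and the brightest was not called. The regions are printed because Polycomb is recruited to DNA rich in CpG, and these regions differ widely in CpG content. Each is the 250 bases before the RefSeq start site on the minus strand of chromosome 6 (build GRCm38.p6), written 5′ to 3′, with every CpG in capitals. The windows are chr6:52213068-52213317 for Hoxa3, chr6:52204588-52204837 for Hoxa5, chr6:52218574-52218823 for Hoxa7 and chr6:52227371-52227620 for Hoxa9.
Hoxa3: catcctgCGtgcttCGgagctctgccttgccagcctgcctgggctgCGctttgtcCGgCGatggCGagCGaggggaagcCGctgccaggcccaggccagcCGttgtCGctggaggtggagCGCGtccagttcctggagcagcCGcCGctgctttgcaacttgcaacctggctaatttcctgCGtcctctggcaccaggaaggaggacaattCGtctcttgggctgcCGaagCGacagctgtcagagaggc
Hoxa5: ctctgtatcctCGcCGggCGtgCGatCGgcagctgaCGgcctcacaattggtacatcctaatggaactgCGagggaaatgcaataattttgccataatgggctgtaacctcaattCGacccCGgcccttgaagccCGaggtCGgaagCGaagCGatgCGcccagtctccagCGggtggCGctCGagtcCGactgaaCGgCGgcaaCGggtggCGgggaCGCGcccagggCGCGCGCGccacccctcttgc
Hoxa7: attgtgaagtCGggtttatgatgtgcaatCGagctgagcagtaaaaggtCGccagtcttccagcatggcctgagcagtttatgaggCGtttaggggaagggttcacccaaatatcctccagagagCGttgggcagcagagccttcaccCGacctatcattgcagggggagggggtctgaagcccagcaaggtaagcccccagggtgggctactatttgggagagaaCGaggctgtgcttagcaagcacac
Hoxa9: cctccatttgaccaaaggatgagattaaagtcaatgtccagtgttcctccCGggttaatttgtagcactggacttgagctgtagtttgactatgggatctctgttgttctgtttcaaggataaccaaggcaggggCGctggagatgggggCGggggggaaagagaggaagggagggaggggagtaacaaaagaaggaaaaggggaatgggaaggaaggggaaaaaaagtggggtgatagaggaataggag

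The Hoxa5 window held 28 CpG, more than 92.4% of the 32851 start-site windows in the RefSeq table. The Hoxa3 window held 18, the Hoxa7 window 7 and the Hoxa9 window 3, against a median of 6 over all windows and 12.5 over the 24 windows of Hox genes. On the chromosome the Hoxa3 window lies between those of Hoxa6 and Hoxa7, out of the order of the gene numbers. It may thus be a distant start site, and its CpG count need not hold for another start site of Hoxa3. The table had a window for 19 of the 33 Hox genes measured, and the 24 windows also cover Hox genes with no result here. Short motifs were searched on both strands. The Cdx site TTTATG, bound by the caudal homeobox factors that switch on Hox genes in the embryo, occurred in the Hoxa7 window at positions -236 and -173 from the start site. It was in 5 of the 24 Hox windows (20.8%) and in 10.8% of all windows. The site shared by Pbx and Hox proteins, TGATNNAT, was in 4 Hox windows (16.7%) and in 7.68% of all windows, and in none of the 4 printed. CCAAT was in 14 Hox windows (58.3%) and in 33.8% of all windows, with 1 match at -204 in the Hoxa5 window. No matches overlapped in the printed windows.

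The arrays themselves were alike in centre but not in width. Their medians lay between 5.97 and 6.09 (log2) and their interquartile ranges between 3.45 (WT2) and 4.29 (KO4). Width went largely with genotype: KO4, KO3 and KO1 were the widest arrays, while KO2 lay just below WT1, the widest wildtype array. The defining T and iNKT cell markers were present on every array, with a mean over 9 markers of 11.97 to 12.15 on wildtype and 11.76 to 11.93 on knockout arrays. Of the 9, 3 were called: Il2rb (-1.01, adjusted p = 0.0257) and Tbx21 (-1.08, adjusted p = 0.0313), which mark the mature subset that makes interferon gamma, were lower, and Thy1 (0.89, adjusted p = 0.0425) was higher. The calls of Tbx21 and Thy1 ended on dropping any array but KO2, that of Il2rb on dropping WT1, WT5, KO1, KO3 or KO4, and Thy1 stood at 0.26 (adjusted p = 0.484) with arrays centred and scaled. Their part in the Hox differences was not tested. The probe set of Kdm6a averaged 9.97 ± 0.13 (SD, n = 5) without and 9.94 ± 0.21 (n = 4) with the knockout, a difference of -0.01 (SE 0.19, adjusted p = 0.974). Whether it lies in the deleted part is not known, so it checks nothing about the genotype labels. Across genes, the deviations of WT1 and KO1 from their group means correlated at r = -0.926, and no source at hand states whether the deposited values had been adjusted for batch. All values below are log2 levels, and differences are knockout minus wildtype fitted with batch as a factor by limma and adjusted over all genes. Nothing says whether the animals of a group shared a litter or a preparation, so p-values measure only the spread between these arrays.

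Most Hox probe sets read low. As a view of array background, 26 genes of unrelated tissues, such as those for casein and prolactin, had a median level of 4.80 and a 90th percentile of 6.70. Of these 26 genes 3 were themselves called, all lower (11.5%): Csn2 (-1.41, adjusted p = 0.0047), Prl (-1.18, adjusted p = 0.0406) and Ins2 (-0.75, adjusted p = 0.0496). Genotype differences as large as that of Hoxa7, though in the other direction, thus occurred among genes chosen to show background. The call of Csn2 stayed on dropping any array, and those of Prl and Ins2 only on dropping WT1 or KO1 (without WT2, -0.46 and -0.38). Of the 33 Hox genes, 14 had a wildtype mean above that median and 1, Hoxc6, above that 90th percentile. In knockout cells 17 lay above the median and 4 above the 90th percentile. Probe sets differ in how brightly they bind, so this gives no order of expression between genes and does not decide which Hox genes are on. The wildtype signal of a Hox probe set is not shown to lie above background, so the differences below are differences of log2 signal, not measures of how far a transcript changed, and they are not ranked between genes.

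In knockout iNKT cells, 2 of the 33 Hox genes passed the test, both of the A cluster and both higher: Hoxa5 and Hoxa7. This is 6.06% of the Hox genes, against 9.17% of all 18193 genes called and 5.99% called higher (3.18% lower). None of the genes of the B, C and D clusters was called, and no Hox gene was called lower. The median difference over the 33 genes was 0.02, against 0.04 over all genes. Among all genes called, 65.3% were higher, and 50.5% once each array was centred and scaled to a common width. In that setting 12.4% of all genes were called. The Hox genes called there were 6, Hoxa2, Hoxa4, Hoxb1 and Hoxd9 beside Hoxa5 and Hoxa7. With batch 2 taken alone 0 Hox genes passed (5 at an unadjusted p under 0.05), and with no batch term 11 did. Of all genes, 42.1% were called with no batch term. In the fit with batch, on the deposited values and the brightest probe sets, the Hox genes as a family were called no more often than genes at large. This did not hold in every alternative: with arrays centred and scaled 6 of 33 were called, against 12.4% of all genes. Over genes at an unadjusted p under 0.05, 8 Hox genes were higher and 1 lower (27.3%), against 29.9% of all genes.

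The A cluster held Hoxa5 and Hoxa7, the Hox genes that passed. Its median difference was 0.55, with 7 of 9 genes positive, while the medians were -0.03 in the B cluster, 0.02 in the C cluster and 0.06 in the D cluster. Of its 16 probe sets, 4 were called, all higher, in a fit over every probe set, in which 6.4% of 45037 were called (3.73% higher, 2.67% lower). The other 32 Hox probe sets gave no call. The 4 probe sets called belong to Hoxa3, Hoxa5, Hoxa7 and Hoxa9, and the calls of Hoxa3 and Hoxa9 rest on a probe set that is not the brightest of its gene.

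**Figure D1:**
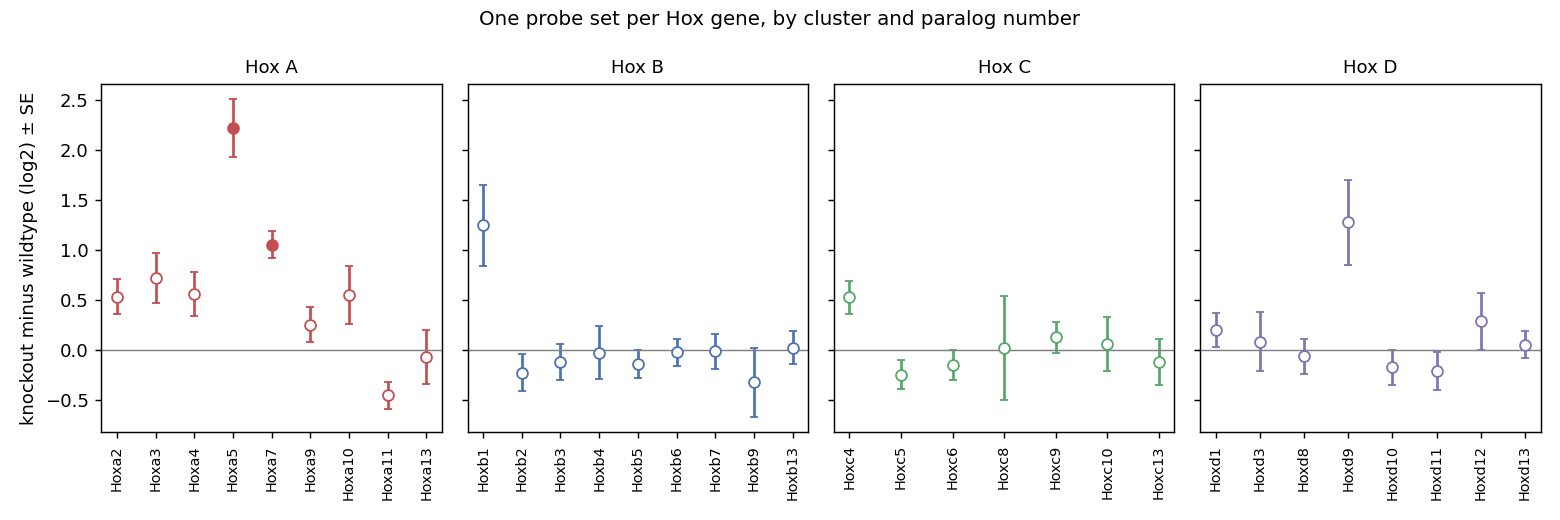
Difference between knockout and wildtype iNKT cells (log2, vertical axis) for 1 probe set of each of 33 Hox genes, in 4 panels by cluster and ordered by paralog number; points are fitted differences, bars are 1 SE either way, and filled points passed the adjusted p of 0.05. Hoxa5 at 2.22 and Hoxa7 at 1.05 are the filled points, Hoxb1 at 1.25 and Hoxd9 at 1.28 are high with long bars, and most other points lie near 0.

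Hoxa5, a central A cluster gene that acts in lung, skeleton and blood progenitors, was called. It read 5.23, 4.74, 5.51, 4.72 and 4.78 across WT1 to WT5, against 6.88, 7.39, 7.44 and 7.20 across KO1 to KO4. All knockout arrays lay above all wildtype arrays, with a gap of more than 1 between the groups. The mean rose from 4.99 ± 0.35 (SD, n = 5) to 7.23 ± 0.25 (n = 4), a difference of 2.22 (SE 0.29, adjusted p = 0.0053). It was 1.65 within batch 1 and 2.60 within batch 2. Without WT2, whose loss leaves only batch 1 to compare the genotypes, the call ended (1.65, adjusted p = 0.0519). A further Hoxa5 probe set, 1443803_x_at, read 4.85, 5.66, 5.44, 4.95 and 5.27 across WT1 to WT5, against 6.67, 6.01, 6.15 and 6.17 across KO1 to KO4. Its groups did not overlap either, but its difference of 1.0 (SE 0.29) did not pass (adjusted p = 0.0732); batch 1 alone gave 1.82, batch 2 alone 0.45. The suffix x marks probe sets with probes that can also bind other transcripts.

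Hoxa7, whose overexpression with Hoxa9 is a known feature of acute leukaemias with MLL fusions, had the most even values of the members called. It read 5.85, 5.72, 5.77, 5.80 and 5.85 across WT1 to WT5, against 6.84, 6.86, 6.75 and 6.84 across KO1 to KO4. Within each genotype the arrays lay close together, and the step between the groups was many times their spread. The mean rose from 5.80 ± 0.06 (SD, n = 5) to 6.82 ± 0.05 (n = 4), a difference of 1.05 (SE 0.13, adjusted p = 0.0053); batch 1 alone gave 0.98, batch 2 alone 1.10. It stayed called whichever of the 9 arrays was dropped (adjusted p 0.0060 to 0.0436), though dropping WT3, WT4 or WT5 cannot move the difference. Hoxa7 had 1 probe set only.

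Hoxa3, which the embryo needs to form the thymus and parathyroid from the pharyngeal pouches, depended on the probe set. Its brightest probe set read 5.43, 6.02, 5.98, 5.72 and 5.29 across WT1 to WT5, against 6.60, 6.56, 6.54 and 6.22 across KO1 to KO4. The groups did not overlap, but WT2 and WT3 lay close below KO4. Its difference of 0.72 (SE 0.25) did not pass (adjusted p = 0.102); batch 1 alone gave 1.17, batch 2 alone 0.42. The probe set 1427433_s_at, derived from the same sequence record as the brightest one per the array's annotation table, read 4.33, 4.71, 4.73, 4.42 and 4.48 across WT1 to WT5, against 7.27, 7.11, 7.14 and 7.06 across KO1 to KO4. Here the groups lay more than 2 apart. Its mean rose from 4.53 ± 0.18 (SD, n = 5) to 7.14 ± 0.09 (n = 4), a difference of 2.61 (SE 0.18, adjusted p = 0.0032 over all probe sets); batch 1 alone gave 2.95, batch 2 alone 2.39. The suffix s marks probe sets whose probes match several transcripts, so which transcript rose is not settled. The other Hoxa3 probe sets had differences of 0.38 (adjusted p = 0.231) and -0.27 (adjusted p = 0.339).

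Hoxa9, the best-known Hox gene of blood stem cells and leukaemia, showed the same split. Its brightest probe set read 5.38, 5.29, 5.19, 5.34 and 5.49 across WT1 to WT5, against 5.51, 5.83, 5.39 and 5.65 across KO1 to KO4. The groups overlapped, and the difference was 0.25 (SE 0.18, adjusted p = 0.372, 95% interval -0.15 to 0.66); batch 1 alone gave 0.14, batch 2 alone 0.33. The probe set 1455626_at read 3.47, 3.94, 3.47, 3.79 and 3.79 across WT1 to WT5, against 5.66, 5.23, 5.40 and 5.29 across KO1 to KO4. Every knockout array exceeded every wildtype array by more than 1. Its mean rose from 3.69 ± 0.21 (SD, n = 5) to 5.40 ± 0.19 (n = 4), a difference of 1.70 (SE 0.21, adjusted p = 0.0073); batch 1 alone gave 2.19, batch 2 alone 1.37. This call and that of 1427433_s_at also survived dropping any of the 9 arrays.

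**Figure D2:**
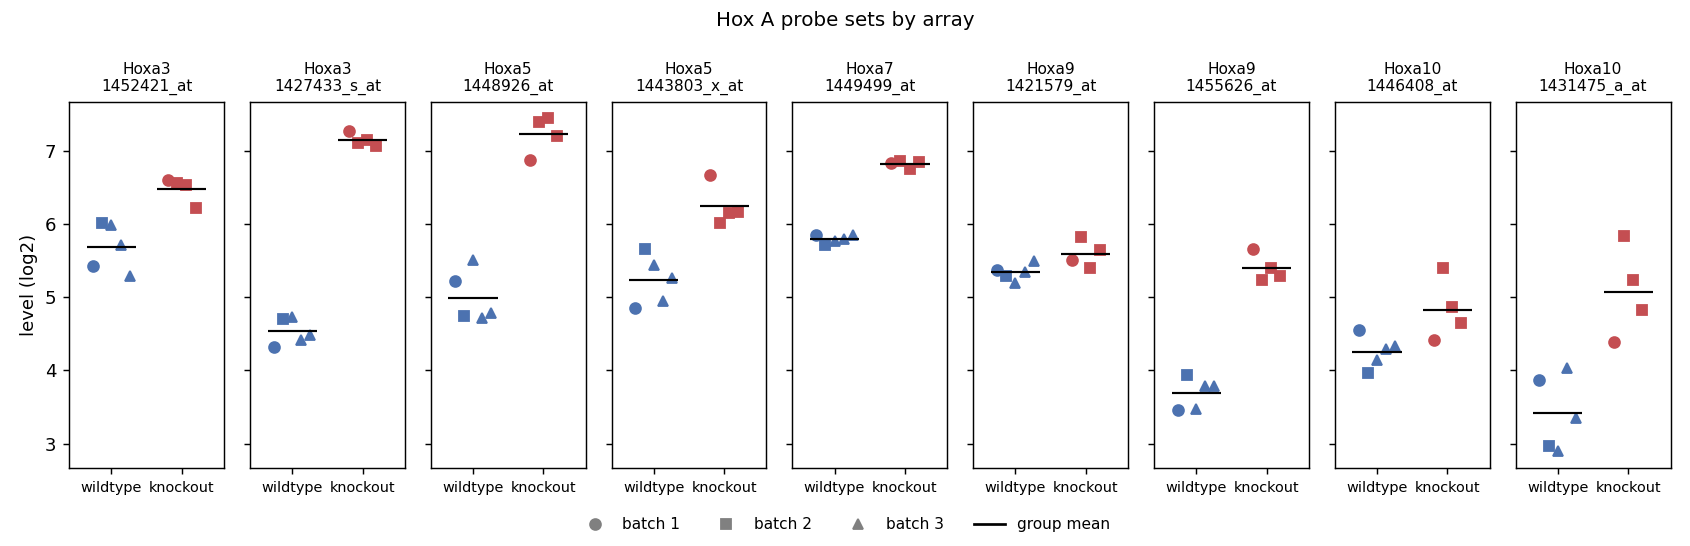
Level (log2, vertical axis) on each of the 9 arrays for 9 probe sets of Hoxa3, Hoxa5, Hoxa7, Hoxa9 and Hoxa10, with wildtype in blue, knockout in red, a marker shape for each batch and a line at the group mean. Knockout arrays lie apart from wildtype arrays for 1427433_s_at, both Hoxa5 probe sets, Hoxa7 and 1455626_at, and overlap with them for the brightest probe sets of Hoxa9 and Hoxa10.

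Neither probe set of Hoxa10 passed. Hoxa10, which acts in the uterus and in myeloid progenitors, read 4.55, 3.96, 4.15, 4.29 and 4.33 across WT1 to WT5, against 4.42, 5.40, 4.86 and 4.64 across KO1 to KO4 on its brightest probe set. KO1 lay among the wildtype arrays. The difference was 0.55 (SE 0.29, adjusted p = 0.240); batch 1 alone gave -0.14, batch 2 alone 1.01. Its other probe set, 1431475_a_at, read 3.87, 2.97, 2.89, 4.03 and 3.35 across WT1 to WT5, against 4.39, 5.84, 5.23 and 4.83 across KO1 to KO4. All knockout arrays were higher, KO1 only a little above WT4, and the difference of 1.61 (SE 0.47) did not pass (adjusted p = 0.0737); batch 1 alone gave 0.52, batch 2 alone 2.33.

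Hoxa2 and Hoxa4, which pattern the hindbrain and neck region, did not pass. Hoxa2 read 3.07, 3.02, 3.04, 3.14 and 2.89 across WT1 to WT5, against 3.54, 3.57, 3.38 and 3.83 across KO1 to KO4, a difference of 0.53 (SE 0.17, adjusted p = 0.0861); batch 1 alone gave 0.47, batch 2 alone 0.57. Hoxa4 read 3.79, 4.32, 3.89, 4.07 and 4.17 across WT1 to WT5, against 4.92, 4.66, 4.50 and 4.36 across KO1 to KO4, a difference of 0.56 (SE 0.22, adjusted p = 0.141); batch 1 alone gave 1.12, batch 2 alone 0.18. Neither gene's groups overlapped, both lay below the 25th percentile of all probe sets (4.54), and the other Hoxa4 probe set had a difference of 0.09. Without WT2, Hoxa4 was called (1.12, adjusted p = 0.0492).

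The genes at the high-numbered end of the cluster did not pass. Hoxa11, a gene of limb and reproductive tract, read 3.50, 3.43, 3.50, 3.48 and 3.35 across WT1 to WT5, against 2.95, 3.0, 3.09 and 3.0 across KO1 to KO4. Every knockout array was lower, at a level below the 25th percentile of all probe sets, and the difference of -0.46 (SE 0.14) did not pass (adjusted p = 0.0735). It was -0.55 in batch 1 and -0.40 in batch 2, and came to -0.29 with quantile normalization (adjusted p = 0.234) and -0.12 with arrays centred and scaled (adjusted p = 0.722). For Hoxa13, the last gene of the cluster, the genotypes differed by -0.07 (SE 0.27, adjusted p = 0.882). Along the A cluster, the probe sets with differences of 1 or more thus came from Hoxa3, Hoxa5, Hoxa7, Hoxa9 and Hoxa10, and none from Hoxa2, Hoxa4, Hoxa11 or Hoxa13.

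**Figure D3:**
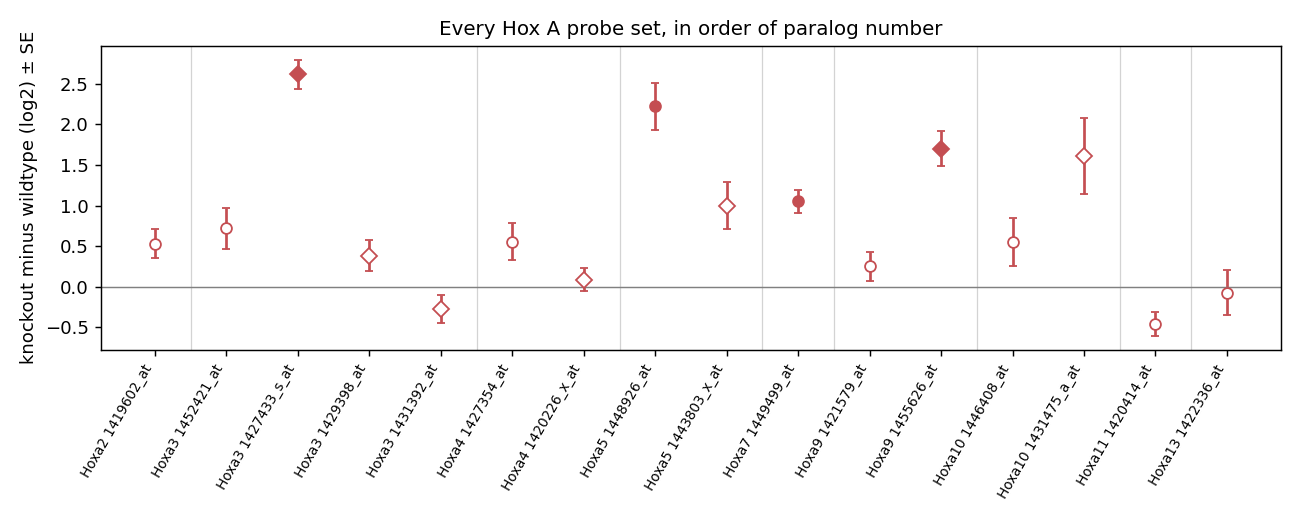
Difference between knockout and wildtype (log2, vertical axis) for all 16 Hox A probe sets, ordered by paralog number and, within a gene, by mean level; circles are the brightest probe set of a gene, diamonds the others, bars are 1 SE either way, and filled symbols passed the adjusted p of 0.05 over all probe sets. Probe sets of 1 gene differ widely, as between 2.61 and -0.27 for Hoxa3 and between 1.70 and 0.25 for Hoxa9.

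Probe sets of 1 gene agreed in sign more often than in size. Of the 11 Hox genes with several probe sets, 7 had the same sign on all of them and 4 had both signs. In the A cluster 4 of 5 such genes had 1 sign, the exception being Hoxa3. When a gene was given the mean of its probe sets instead of the brightest, 4 Hox genes were called, with 9.78% of all genes. These were Hoxa3 (0.86, adjusted p = 0.0130), Hoxa5, Hoxa7 and Hoxa9 (0.98, adjusted p = 0.0089). The same 4 were called with the probe set of largest SD, where 11.6% of all genes were called. A genotype difference itself raises that SD over all arrays, so this choice favours such probe sets and adds no separate support.

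Outside the A cluster, Hoxb1 and Hoxd9 had differences above 1, carried by batch 2. The only wildtype array of that batch, WT2, read lowest of the 5 wildtype arrays for both genes. Hoxb1, which specifies a hindbrain segment, read 3.84, 3.03, 3.29, 3.70 and 3.36 across WT1 to WT5, against 4.10, 5.57, 4.47 and 4.76 across KO1 to KO4. KO1 lay just above WT1, and KO2 stood highest. The difference was 1.25 (SE 0.41, adjusted p = 0.0872); batch 1 alone gave 0.26, batch 2 alone 1.90. Hoxd9, a gene of forelimb and trunk, read 5.48, 4.43, 4.91, 5.10 and 4.92 across WT1 to WT5, against 5.55, 7.02, 6.49 and 6.01 across KO1 to KO4. KO1 again barely passed WT1, while the batch 2 knockout arrays lay well above. The difference was 1.28 (SE 0.43, adjusted p = 0.0930); batch 1 alone gave 0.07, batch 2 alone 2.08. Without WT1 or KO1, which leaves the genotypes to be compared within batch 2, both were called (1.90, adjusted p = 0.0267, and 2.08, adjusted p = 0.0166). The difference between the batches was itself tested: it was 1.64 for Hoxb1 (adjusted p = 0.328) and 2.0 for Hoxd9 (adjusted p = 0.227), and no Hox gene passed. Of all genes, 0.0165% passed that test and 13.6% had an unadjusted p under 0.05.

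**Figure D4:**
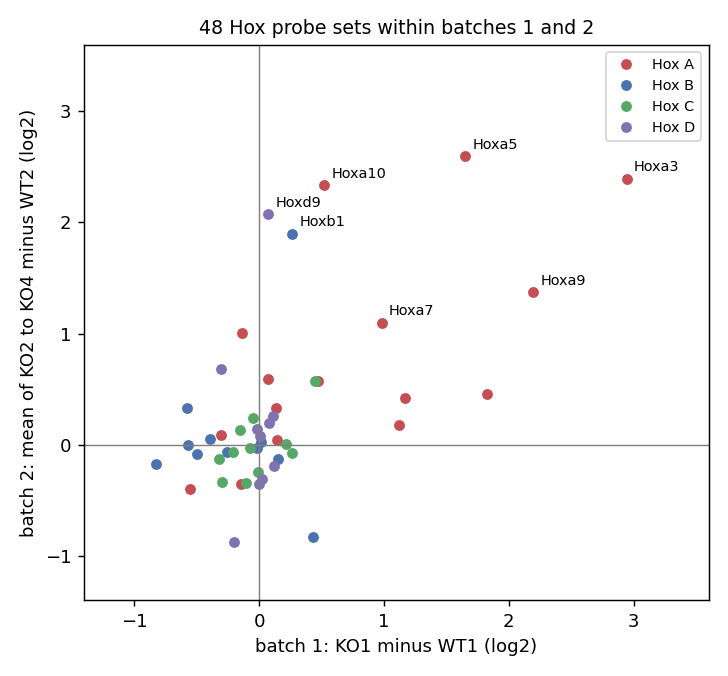
Difference between genotypes within batch 1 (KO1 minus WT1, horizontal axis, log2) and within batch 2 (mean of KO2 to KO4 minus WT2, vertical axis, log2) for each of 48 Hox probe sets, coloured by cluster, with 7 probe sets named (for Hoxa3 1427433_s_at, for Hoxa9 1455626_at and for Hoxa10 1431475_a_at). The labelled Hoxa3, Hoxa5, Hoxa7 and Hoxa9 probe sets lie high in both batches, while Hoxb1, Hoxd9 and Hoxa10 are high mainly in batch 2, with 1 array per genotype in batch 1.

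The rest of the B cluster, whose Hoxb4 is known for expanding blood stem cells, gave differences of -0.33 (Hoxb9) to 0.02 (Hoxb13). Hoxb2, also a hindbrain gene and next after Hoxb1 by p in the cluster, read 3.72, 3.38, 3.53, 3.55 and 3.53 across WT1 to WT5, against 3.15, 3.43, 3.54 and 3.17 across KO1 to KO4. These groups overlapped, and the difference was -0.23 (SE 0.18, adjusted p = 0.427); batch 1 alone gave -0.57, batch 2 alone 0.00. Hoxb4 read 6.25 ± 0.21 (SD, n = 5) and 6.21 ± 0.37 (n = 4), a difference of -0.03 with a 95% interval of -0.64 to 0.58. Differences within that interval are not excluded for Hoxb4. Its other probe set, 1451761_at, differed by -0.43 (SE 0.22, adjusted p = 0.230), and there the groups did not overlap.

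In the C cluster, Hoxc4, expressed in lymphocytes among other cells, read 4.41, 4.40, 4.30, 4.33 and 4.56 across WT1 to WT5, against 4.86, 4.94, 4.82 and 5.15 across KO1 to KO4. The groups did not overlap, and the difference of 0.52 (SE 0.16) did not pass (adjusted p = 0.0781); batch 1 alone gave 0.45, batch 2 alone 0.57. Hoxc5, its neighbour, had no overlap in the other direction, reading 5.54, 5.71, 5.63, 5.68 and 5.53 across WT1 to WT5, against 5.43, 5.34, 5.47 and 5.27 across KO1 to KO4. The knockout arrays all lay lower by a little, and the difference was -0.25 (SE 0.15, adjusted p = 0.285); batch 1 alone gave -0.11, batch 2 alone -0.35. Its other probe sets had -0.05 and 0.09. Hoxc6, the only Hox gene with a wildtype mean above the 90th percentile of the unrelated-tissue genes, differed by -0.15 (SE 0.15, adjusted p = 0.524), and -0.32 and -0.21 on its other probe sets, whose groups did not overlap (adjusted p = 0.201 and 0.436). Hoxc8 varied most within a genotype, from 5.56 in WT5 to 7.74 in WT3, so that its interval ran from -1.17 to 1.21. Hoxc9, Hoxc10 and Hoxc13 had differences of 0.12, 0.06 and -0.12.

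In the D cluster, which patterns limb and genital tubercle, Hoxd1 read 2.41, 2.34, 2.33, 2.25 and 2.52 across WT1 to WT5, against 2.52, 2.62, 2.39 and 2.77 across KO1 to KO4. The groups overlapped, and the difference was 0.20 (SE 0.17, adjusted p = 0.463); batch 1 alone gave 0.11, batch 2 alone 0.26. The other genes of the cluster, Hoxd9 left aside, had differences of -0.21 (Hoxd11) to 0.29 (Hoxd12). A further probe set of Hoxd13, 1440626_at, read 3.84 to 4.30 in wildtype and 3.29 to 3.64 in knockout cells, a difference of -0.60 (SE 0.19, adjusted p = 0.0851), whereas the brightest Hoxd13 probe set had 0.05.

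Over all 33 Hox genes, 18 had a positive difference, against 53.9% of all genes, and 20 had the same sign in batches 1 and 2, against 65% of all genes. Of them, 8 had every knockout array above every wildtype array and 2 had every knockout array below. Together this is 30.3% of the Hox genes, against 34% of all genes. Of the 8, 5 lay in the A cluster. By position, the genes numbered 1 to 3 had a median difference of 0.20, those numbered 4 to 8 a median of -0.02 and those numbered 9 to 13 a median of 0.03.

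The genes just outside the clusters were looked up by their order in the reference gene table. The 24 nearest protein-coding genes with a probe set of their own were taken, 3 on each side of each cluster. Of these 1 was called (4.17%, against 9.17% of all genes), and their median difference was 0.04. Beside the A cluster, Hibadh, a mitochondrial enzyme of valine breakdown, was called at 0.79 (SE 0.19, adjusted p = 0.0409). Dropping any array but KO2 ended that call (0.71 to 0.84, adjusted p 0.0668 to 0.320), as did quantile normalization (0.58, adjusted p = 0.0583), centring and scaling the arrays (0.37, adjusted p = 0.213) and the mean of its probe sets (0.76, adjusted p = 0.0549). Evx1, the homeobox gene that borders the cluster at its high-numbered end, had a difference of -0.17 (adjusted p = 0.466), and Skap2, a signalling adaptor at the other end, 0.42 (adjusted p = 0.157).

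Hox proteins bind DNA with partners of the TALE class. Of 12 genes measured from a list of TALE and other Hox partner factors, 1 was called. This was Gmnn, geminin, which is not of the TALE class and is better known as an inhibitor of DNA replication licensing. Its level rose by 1.30 (SE 0.19, adjusted p = 0.0083). Meis1, the partner that acts with Hoxa9 in blood progenitors, read 6.75 ± 0.31 (SD, n = 5) and 6.32 ± 0.24 (n = 4), a difference of -0.51 (adjusted p = 0.210). Of all genes 9.17% were called and 5.99% higher. Of 23 genes that activate Hox transcription (17.4% called), such as the MLL1 complex, Dot1l and their elongation partners, 4 rose and 0 fell: Mllt10 (0.96), Dpy30 (0.82), Aff1 (0.64) and Dot1l (0.65; adjusted p 0.0336 to 0.0496). All 4 calls were lost on dropping WT2 (adjusted p 0.104 to 0.597), among other arrays, and Mllt10 and Dpy30 moved to 0.45 and 0.47. All 4 were also lost with quantile normalization (adjusted p 0.0528 to 0.116) and with arrays centred and scaled, where Aff1 stood at 0.05, Dot1l at 0.22, Dpy30 at 0.42 and Mllt10 at 0.69 (adjusted p 0.0535 to 0.911). The mean of its probe sets gave Mllt10 0.16 (adjusted p = 0.597). Kmt2a itself, which encodes MLL1, had 0.49 (adjusted p = 0.113).

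Of 27 Polycomb group genes, 5 rose and 1 fell (22.2%, against 9.17% of all genes called). Ezh2, the methyltransferase of Polycomb repressive complex 2, rose from 10.34 ± 0.17 (SD, n = 5) to 12.07 ± 0.29 (n = 4), a difference of 1.75 (SE 0.23, adjusted p = 0.0054), and kept its call whichever array was left out. Scmh1 rose by 2.16, Cbx2, a reader of the lysine 27 mark, by 1.26, and Pcgf3 by 1.04 (adjusted p 0.0106 to 0.0288). These 3 calls ended without WT2 (1.83, 0.95 and 0.76, adjusted p 0.105 to 0.345), that of Pcgf3 also without WT3, WT4, WT5, KO3 or KO4. With the mean of a gene's probe sets Pcgf3 stood at 0.08 (adjusted p = 0.726), Cbx2 at 0.66 and Scmh1 at 1.09 (adjusted p = 0.0360 and 0.0154). Phc1 rose by 1.5 and Cbx7 fell by 0.91 (adjusted p = 0.0328 and 0.0370); the call of Phc1 remained on dropping KO2 or KO4 and no other array (adjusted p 0.0503 to 0.287 otherwise), and that of Cbx7 on dropping WT2 or KO2 and no other (adjusted p 0.0535 to 0.0976). On dropping WT1 or KO1, Cbx7 stood at -0.54. Bmi1, a core member of Polycomb repressive complex 1 needed by blood stem cells, had 0.45 (adjusted p = 0.106). Kdm6b, the other demethylase of this mark, had 0.42 (adjusted p = 0.0871), and 0 of 8 demethylases and Utx partners were called. Uty, the Y-linked relative of Utx, differed by -1.48 (adjusted p = 0.285), but by -4.36 in batch 1, where it read 8.86 in WT1 and 4.50 in KO1, and by 0.43 in batch 2. On the other arrays Uty read 5.81 (KO4) to 7.83 (WT3). The labels say that animals were matched for sex and do not give the sex of each array. WT1 and KO1 are the whole of batch 1, and whether sex enters the batch 1 differences given here was not tested. Other developmental Polycomb targets with a homeobox or paired box, 57 genes in all, gave 0 calls higher and 1 lower, Meox1 (-0.73, adjusted p = 0.0227), with a median of 0.04. The call of Meox1 ended without WT2 (-0.56, adjusted p = 0.271), WT3 or KO3, and with arrays centred and scaled (-0.52, adjusted p = 0.0815).

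Markers of other cell types differed between the genotypes on the same arrays. In bulk RNA a change in the mix of cells and a change of RNA per cell cannot be told apart. Of all genes 9.17% were called and 5.99% called higher. Of 15 double-positive thymocyte markers 10 were called, all higher, and their mean level was 10.44 to 10.88 on wildtype and 11.46 to 12.01 on knockout arrays. For 13 macrophage and dendritic cell markers, 3 of them called higher, the ranges were 5.25 to 5.84 and 6.38 to 7.19. Of the 13, 12 had a positive difference, with a median of 1.98 in batch 1 and 0.39 in batch 2. For 7 B cell markers, 2 called higher, the ranges were 6.40 to 6.76 and 7.07 to 8.11. Of the 7, 5 had a positive difference, while Pax5 (-0.17) and Ebf1 (-0.05) did not. Markers of early, double-negative thymocytes and progenitors, the stage best known for Hox A expression, overlapped, at 6.15 to 6.43 and 6.29 to 6.50, with Gata2 called higher (0.85) and Hhex lower (-1.49). The call of Gata2 ended without any one array other than KO4 (adjusted p 0.0545 to 0.362), and with the mean of its probe sets (0.36, adjusted p = 0.241). Mesenchymal and endothelial markers, of cells that express many Hox genes, lay at 5.03 to 5.39 and 5.31 to 5.58, with 1 of 12 called, Col1a1 (1.68, adjusted p = 0.0135, not called without WT2 at 1.48, adjusted p = 0.129), and thymic epithelial markers at 5.35 to 5.53 and 5.39 to 5.57, with 0 of 12 called. The part of these cells in the Hox differences was not tested.

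**Figure D5:**
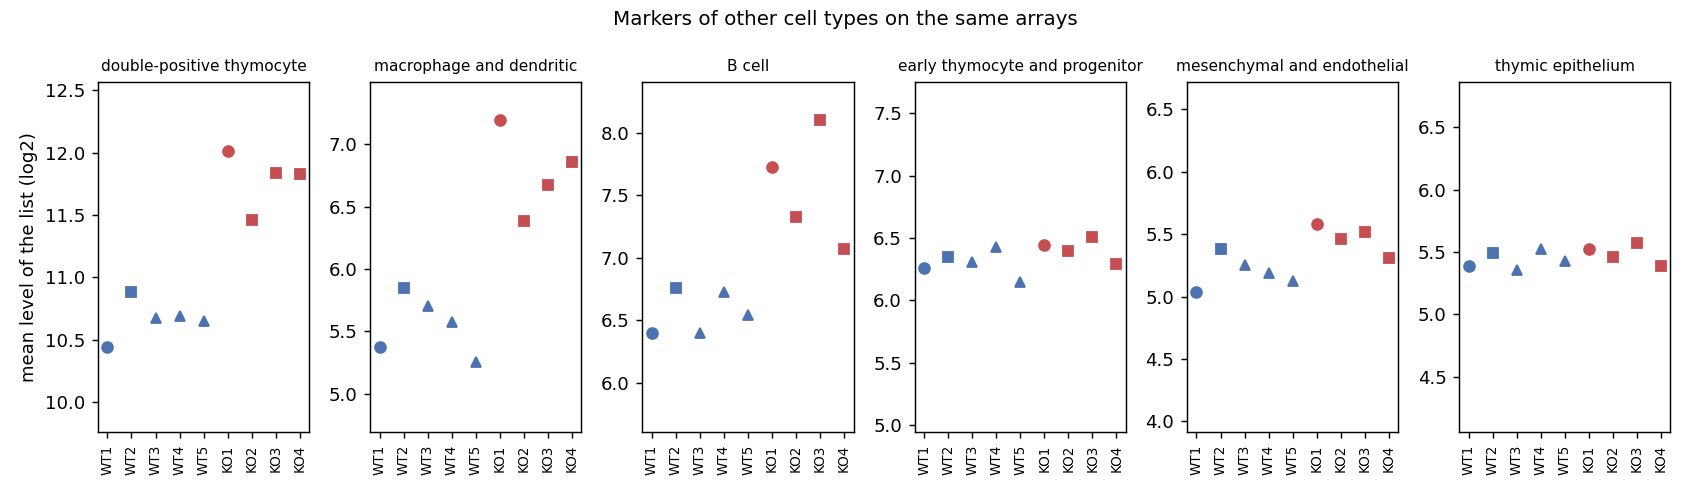
Mean level of 6 marker lists (log2, vertical axis, each panel spanning the same width) on the 9 arrays, wildtype in blue, knockout in red, with a marker shape for each batch as in the plot of Hox A levels by array. Double-positive thymocyte, macrophage and B cell lists lie higher on all knockout arrays, while the early thymocyte, mesenchymal and epithelial lists overlap between the genotypes.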

How the data were processed

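RNA of sorted thymic iNKT cells was amplified with a kit for picogram amounts, biotin-labelled and hybridised to 9 mouse arrays, per the labels' protocols. The authors deposited log2 levels, 1 per probe set and array, made with RMA, which in its usual form corrects background, equalises array distributions and summarises probes; RMA is named per the submitters' processing notes, and any later step is not stated. The interquartile range of the deposited arrays runs from 3.45 to 4.29, so their distributions are not equal. Amplification and probe summary can compress differences. Precision is limited by having 9 arrays.

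Gene names came from the platform's annotation; 34945 named 1 gene, 932 several and 9160 none, and 64 were controls. Probe sets naming several Hox genes were not used. Differences were fitted with limma 3.58.1 (R 4.3.3), with genotype and batch as factors, two-sided, and Benjamini-Hochberg adjustment over 18193 genes with no filter on level, or over 45037 probe sets, called at 0.05. Residual degrees of freedom were 5. The fit was tested on simulated data. The members and lists were chosen with earlier results of these data known. Described in full were all Hox genes called, 12 more of smallest p and at least 2 per cluster; of other lists, up to 4 called genes of smallest p plus 8 genes of interest whatever their result. Probe sets 1443803_x_at, 1431475_a_at and 1440626_at, Hoxa13, Hoxb4, Hoxc6, Hoxc8, Evx1, Skap2, Phc1, Cbx7, Csn2, Prl, Ins2 and all genes of marker lists were named after their values were seen. Promoter windows are from RefSeq. No 2 arrays of a group were duplicates (smallest SD of a difference 0.305, log2). Same-numbered arrays are not pairs by the labels, and their deviations correlated at -0.926 to 0.149. Alternatives covered the batch term, filter, scaling, probe set, eBayes settings, weights, thresholds and left-out arrays.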

Additional observations from a re-analysis of the deposited data

Results flagged for a closer look

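Among 70 sets of values (33 Hox genes and 2 further probe sets, each in both genotypes), 1 had an array that stood far from the others of its group. Chance alone gives about 1 in every 20 sets, so 1 of 70 is no more than chance gives. KO4 read 6.22 on the brightest Hoxa3 probe set, against 6.54 to 6.60 on the other knockout arrays, a gap of 0.838 of the group's range. On the other Hoxa3 probe set called, 1427433_s_at, KO4 read 7.06 and did not stand apart.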

How the results depend on the processing

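The call of Hoxa7 remained in every alternative run except batch 2 taken alone (1.10, adjusted p = 0.0793), and that of Hoxa5 in every one in which it was tested except without WT2 and in batch 2 alone (2.60, adjusted p = 0.0726); above the 50th percentile of level Hoxa5 is not tested. The fit with batch called 2 Hox genes, 4 Hox probe sets and 1668 genes in all. Dropping the batch term gave 11, 18 and 7659, and batch as a random block, whose estimated correlation was -0.323, gave 18, 29 and 12364. No source states whether the deposited values had been adjusted for batch, so these larger counts are not read as stronger results. The replicate number as a replicate block in place of batch gave 8 Hox genes, 12 Hox probe sets and 4852 genes; the numbers are not pairs by the labels. Centring and scaling gave 6 Hox genes, 9 Hox probe sets and 2261 genes. Without the batch 1 pair 4 Hox genes, 8 Hox probe sets and 2327 genes were called. The mean of a gene's probe sets gave 4 Hox genes and 1780 genes, and the probe set of largest SD (chosen after seeing the data) 4 and 2112. Genes above the 50th percentile gave 1 Hox gene and 1523 genes, and an adjusted p of 0.1 gave 7 Hox genes and 3435 genes. Batch 2 alone (chosen after seeing the data) gave 0 Hox genes, 0 Hox probe sets and 0 genes called by limma, with 5 Hox genes and 4590 genes at an unadjusted p under 0.05. All genes called fell to 460 with array weights, 259 at an adjusted p of 0.01 and 281 without the batch 3 arrays. Leaving out 1 array gave 2 to 4 Hox genes, 3 to 8 Hox probe sets, 831 to 2327 genes and a median Hox difference of -0.02 to 0.08. That median moved from 0.02 to 0.1446 with quantile normalization and 0.2033 with centring and scaling. Both settings equalise array width, which on the deposited values was greatest on KO4, KO3 and KO1. Causes were not tested. No called result changed sign. Among those not called, Hoxb2 moved from -0.23 to 0.10 with centring and scaling, Hoxa10 from 0.55 to -0.14 without WT2, and the Hox median to -0.01 above the 50th percentile and -0.02 without KO2. Signal near that of unrelated-tissue genes limits what low Hox probe sets can show.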
